A study of Mus musculus with 17 samples.

Results

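Leptin and insulin signalling was followed through 32 genes in RNA bound to the ribosomes of mouse hypothalamic POMC neurons. The genes were a named list of receptors, kinases, transcription factors, adaptors and inhibitors of the pathways, found in the data by symbol. The list was chosen with earlier results of these data known. All 32 were found among the 15355 genes measured. POMC neurons of the arcuate nucleus make pro-opiomelanocortin, the precursor of an appetite-suppressing peptide. In a RiboTag mouse, cells that express a recombinase carry an HA tag on a ribosomal protein, and an HA antibody then pulls down their ribosomes with the RNA being translated. All 17 libraries came from mediobasal hypothalamus of POMC RiboTag mice, so every group carried the tag and none was an untagged control or an input library. The groups were offspring of dams on a high-fat diet at postnatal day 21 (HFD P21, n = 4), offspring of chow-fed dams at day 21 (chow P21, n = 3), offspring of HFD dams at day 0 (HFD P0, n = 5) and offspring of chow-fed dams at day 0 (chow P0, n = 5). The dams started the 45% HFD or standard chow at 6 weeks of age, were mated after 4 weeks, and kept their diet until the pups reached day 21. The labels give no sex, litter or pooling of the animals, so each p-value reflects library-to-library spread, which may be technical. The driver of the tag is not described beyond its name. In mouse, cells that have once expressed Pomc include some that later become AgRP neurons, so a tag of this kind can mark more than adult POMC neurons.

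Leptin binds the leptin receptor (Lepr), which carries the kinase JAK2 (Jak2). JAK2 phosphorylates the transcription factors STAT3 and STAT5, and STAT3 induces Pomc and also Socs3, a suppressor that shuts the receptor off. The phosphatases PTP1B (Ptpn1) and TCPTP (Ptpn2) dampen both leptin and insulin signals, while the adaptor SH2B1 strengthens JAK2. Insulin and IGF1 act through their receptors (Insr, Igf1r) and the insulin receptor substrates (Irs1, Irs2, Irs4) on PI3K, PDK1 (Pdpk1) and AKT, which restrain FOXO1, FOXO3, GSK3B and the TSC complex and thereby release mTOR. AMPK, with the catalytic subunits Prkaa1 and Prkaa2, senses low energy and opposes mTOR.

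The table holds normalized values in scaled units close to CPM, with column totals that differ. Each library held 22374063 to 37094435 reads counted to genes, and 1 read was worth 0.0275 to 0.0460 units, so a value of 0 would allow up to 0.0826 to 0.138 units (3 reads, counting error only). Group differences are log2 differences of value + 1 with their standard error (SE), and a difference passed the test where limma's adjusted p over all genes tested was under 0.05. On this scale the change of genes near 0 is understated. Marker genes of POMC neurons were present in all libraries, with Pomc at 7460 to 9818 in HFD P21, 3878 to 12070 in chow P21, 90.7 to 1057 in HFD P0 and 146 to 1308 in chow P0. Markers of other cells were present too, since the summed level of 12 oligodendrocyte genes was 4030 to 7395 in HFD P21, 8294 to 18430 in chow P21, 340 to 464 in HFD P0 and 439 to 1060 in chow P0. In such bulk libraries, fewer cells of a type and less RNA per cell cannot be told apart. Libraries stood apart from their groups in several ways. HFD P0 replicate 5 had 1057 of Pomc with 25.6 of Agrp, against 90.7 to 246 of Pomc with 4.11 to 8.31 of Agrp in the other 4. In chow P21 replicate 3, Pomc was at 12070 with 14.0 of Agrp, against 3878 and 4679 of Pomc with 133 and 184 of Agrp in the other 2. Chow P0 replicate 3 had 106 of Cartpt, against 7.21 to 22.05 in the other 4, and an oligodendrocyte sum of 1060, against 439 to 529. The sum of 8 choroid plexus and ependyma markers was 1179 in chow P0 replicate 1, against 45.0 to 170 in the other chow P0 libraries, and 565 and 597 in HFD P0 replicates 2 and 5, against 55.8 to 173 in the other HFD P0 libraries. Each library was left out in turn, and calls that this changed are named with the result.

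Socs3 carries the largest difference between the diets at day 21 among the 32 genes, and STAT3 is known to act on it through sites of the form TTCNNNGAA. The stretch shown is chr11:117969452-117969616 on the minus strand (GRCm38.p6, RefSeq), from 250 to 86 bases before the RefSeq start of Socs3. It overlaps no GENCODE M21 exon and lies inside the GENCODE gene, which spans bases 117966079 to 117970047, because a longer GENCODE transcript begins further upstream. Capitals mark its single match to the motif, which reads the same on both strands.
Socs3: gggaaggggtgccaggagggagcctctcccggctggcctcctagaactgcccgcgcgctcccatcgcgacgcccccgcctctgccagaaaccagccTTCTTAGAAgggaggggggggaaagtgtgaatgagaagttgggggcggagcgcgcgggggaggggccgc
The match lies 154 to 146 bases before the start. Of 32851 RefSeq promoter windows of 250 bases, 7.02% held this motif. The 30 genes of the list with a window had 40 windows, of which 3 held it (in Socs3, Akt2 and Mtor), near the share of all windows. A match describes the letters only.

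The levels of the 32 genes per kb of exon covered a wide range within each group, as the plot of levels per length shows. Irs4, a substrate with few sites of expression, the hypothalamus among them, was the highest of the 32 at day 21, with a mean of 58.6 per kb in HFD P21 and 31.1 per kb in chow P21. At day 0 the highest were Pik3r2, a regulatory subunit of PI3K, at 33.0 per kb in HFD P0, and the kinase Akt1 at 48.4 per kb in chow P0. The lowest in all 4 groups was Foxo3, with 0.153 per kb in HFD P21, 0.304 in chow P21, 0.355 in HFD P0 and 0.102 in chow P0. Lepr ranked 28 of 32 in HFD P21 and 30 of 32 in the other 3 groups, with means of 1.33 per kb in HFD P21, 0.724 in chow P21, 0.571 in HFD P0 and 0.515 in chow P0. The values are per gene and do not separate the long, signalling form of the leptin receptor from its short forms. Insr was above Igf1r per kb in HFD P21 (1.58 against 0.907 per kb), chow P21 (1.92 against 1.37 per kb) and chow P0 (3.27 against 2.01 per kb), and level with it in HFD P0 (2.97 against 2.95 per kb).

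**Figure D1:**
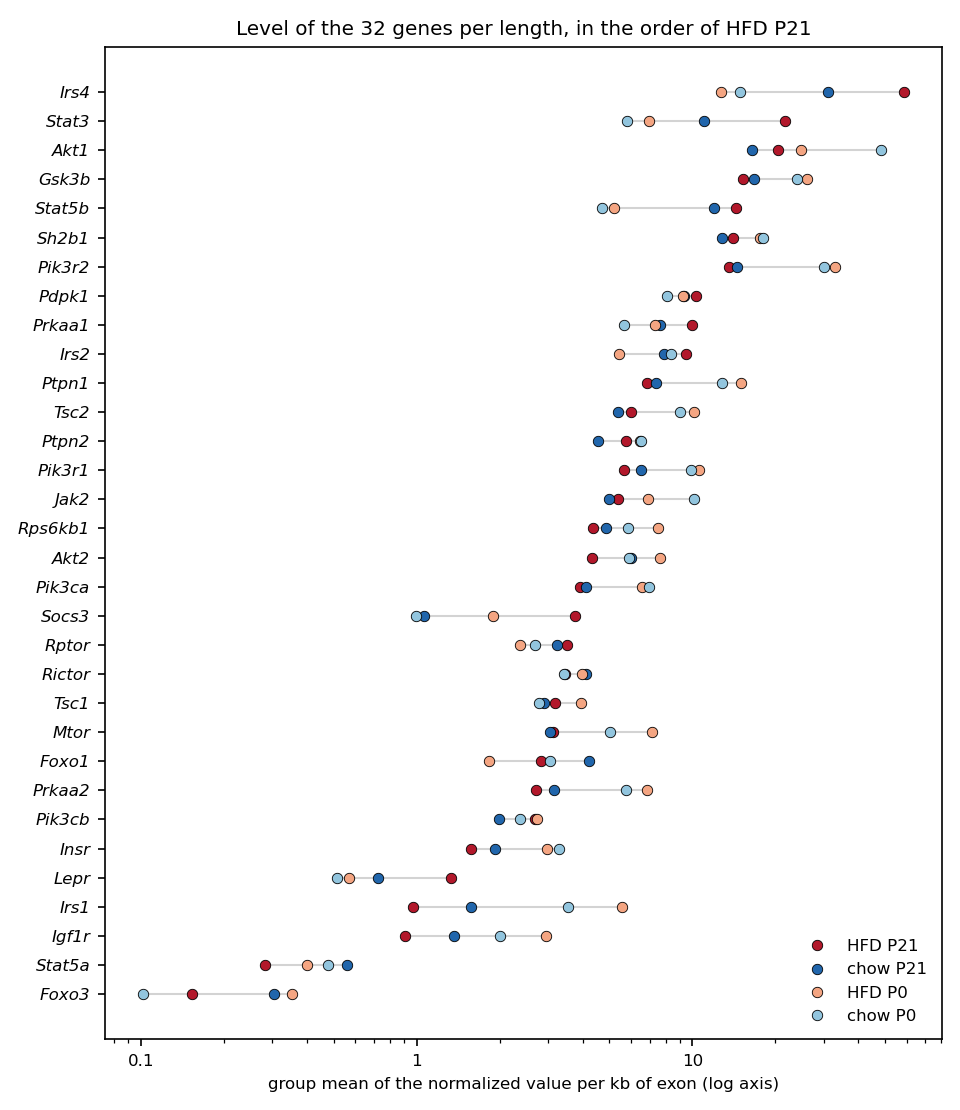
Mean normalized value per kb of exon (log axis) for the 32 genes, with 1 point for each of the 4 groups and a grey line over their range. Irs4 and Stat3 lie furthest right in HFD P21, while Lepr, Stat5a and Foxo3 lie at the low end in every group.

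HFD and chow offspring were compared at day 21 to see how the genes differed with the diet of the dam at weaning. None of the 32 genes passed the test, and 25 of the 14070 genes tested did (0.178%). The log2 difference furthest from 0 was that of Socs3, followed by Irs4 and Stat3. Socs3, Stat3 and Lepr were each higher in every HFD library than in any chow library. Such a lack of overlap, in either direction, held for 12.5% of the list and for 16.1% of all genes tested. Cartpt, which encodes a second appetite-suppressing peptide of POMC neurons and is not among the 32, did rise, with 1912 to 2761 in HFD P21 and 391 to 834 in chow P21 (log2 difference 1.91, adjusted p = 0.0137).

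Socs3 had 11.1, 10.2, 9.73 and 12.3 in HFD P21, against 2.21, 2.34 and 4.69 in chow P21. The HFD libraries lay close together and above the highest chow library. The log2 difference was 1.58 ± 0.30 (SE), with a 95% interval of 0.93 to 2.24 and an adjusted p of 0.0649. Stat3 had 187, 201, 180.2 and 262 in HFD P21, against 95.8, 139 and 80.6 in chow P21, again with no overlap. Its log2 difference was 0.99 ± 0.20, with an interval of 0.56 to 1.42 and an adjusted p of 0.0676. Leaving out single libraries kept the Socs3 difference at 1.44 to 1.85 and the Stat3 difference at 0.82 to 1.21, with adjusted p at or above 0.0534 for Socs3 and 0.0780 for Stat3. With all 17 libraries in 1 fit, which pools the spread of the groups, Stat3 did pass (adjusted p = 0.0199) and Socs3 did not (adjusted p = 0.198).

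Lepr had 8.66, 12.8, 7.97 and 8.02 in HFD P21, against 7.47, 3.69 and 4.14 in chow P21. The groups did not overlap, but the lowest HFD library (7.97) lay near the highest chow library (7.47). The log2 difference was 0.79 ± 0.31 (adjusted p = 0.229), and 0.65 without HFD P21 replicate 2, the library with the highest Lepr. Jak2, the kinase on the receptor, had 14.4 to 38.9 in HFD P21 and 16.9 to 37.6 in chow P21, so the diets overlapped fully. Stat5b, a second STAT of the receptor, had 50.5 to 106 in HFD P21 and 53.5 to 76.4 in chow P21. Stat5a was at most 3.68 in HFD P21 and 5.61 in chow P21. The phosphatases did not separate the diets, with Ptpn1 at 36.0 to 42.3 in HFD P21 and 30.3 to 57.2 in chow P21, and Ptpn2 at 14.4 to 23.65 in HFD P21 and 11.2 to 18.8 in chow P21. The 95% intervals of the differences were -0.53 to 0.43 for Ptpn1 and -0.24 to 0.90 for Ptpn2 on the log2 scale.

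Other cells were not equally represented at day 21. The summed level of the oligodendrocyte list was lower in every HFD library than in any chow library (4030 to 7395 against 8294 to 18430), and so were 10 astrocyte markers (1434 to 2555 against 2825 to 4260) and 10 microglial markers (162 to 231 against 278 to 456). The sum of 10 endothelial and mural markers was 57.7 to 91.8 in HFD P21 and 112 to 161 in chow P21. The sum of 10 POMC neuron markers was 14704 to 17498 in HFD P21 and 10157 to 18238 in chow P21, and that of 5 AgRP neuron markers was 798 to 1419 in HFD P21 and 138 to 846 in chow P21. The AgRP list includes Serpina3n, which also marks reactive astrocytes. Every marker of the astrocyte, oligodendrocyte and microglial lists had a mean above 1 in both day 21 groups. The glial sums differed in the opposite direction to Socs3, Stat3, Lepr and Irs4. They differed in the same direction as Igf1r (log2 difference -0.56) and Irs1 (-0.67). By median log2 difference, the POMC list (0.59, with 2 of 10 markers below 0) was higher in HFD P21. So was the AgRP list (1.29, with 2 of 5 below 0), the direction of Socs3, Stat3, Lepr and Irs4. The part of glial or neuronal RNA in any of these results was not tested.

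Among the insulin genes at day 21, Irs4 had 413, 331, 249.97 and 480.05 in HFD P21, against 224, 276 and 86.4 in chow P21. Only the lowest HFD library fell below the highest chow library. The log2 difference was 1.03 ± 0.34 (adjusted p = 0.172), and 0.52 without chow P21 replicate 3 (adjusted p = 0.478). Igf1r, the IGF1 receptor, had 12.7, 17.2, 18.1 and 12.9 in HFD P21, against 19.0, 26.4 and 23.5 in chow P21. Every HFD library was lower, with a log2 difference of -0.56 ± 0.23 (adjusted p = 0.252). Irs1 had 8.59, 9.22, 12.2 and 5.56 in HFD P21, against 11.9, 14.5 and 16.96 in chow P21, with a log2 difference of -0.67 ± 0.29 (adjusted p = 0.269). Here 1 HFD library lay within the chow range. Irs2, the substrate most tied to hypothalamic leptin and insulin action in mouse, had 35.1 to 93.4 in HFD P21 and 34.2 to 70.2 in chow P21. Insr had 17.01 to 28.3 in HFD P21 and 21.6 to 29.5 in chow P21.

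None of the genes from PI3K downwards had an unadjusted p under 0.05 between the diets at day 21. Of the 10 genes from PI3K to GSK3B, the largest log2 difference was that of Foxo1, at -0.68 ± 0.40 (adjusted p = 0.413). Foxo1, which AKT keeps out of the nucleus, had 10.6 to 42.7 in HFD P21 and 27.3 to 53.4 in chow P21. Of the 6 mTOR genes, the largest was that of Rictor, a subunit of mTOR complex 2, at -0.30 ± 0.21 (adjusted p = 0.509). Mtor itself had 21.0 to 42.0 in HFD P21 and 28.7 to 34.8 in chow P21, with an interval of -0.53 to 0.51. The AMPK subunits had log2 differences of 0.37 ± 0.20 for Prkaa1 and -0.20 ± 0.27 for Prkaa2. The log2 differences of Sh2b1, Pik3ca, Pik3cb, Pik3r1, Pik3r2, Pdpk1, Akt1, Akt2, Foxo3, Gsk3b, Rptor, Rps6kb1, Tsc1 and Tsc2 lay between -0.45 (Foxo3) and 0.38 (Pik3cb), with adjusted p of 0.436 to 0.901.

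Over all 32 genes at day 21, 16 differences were above 0 and 16 below, with a median of 0.03 against -0.02 over all genes tested. By limma, 6 of 32 (18.8%) had an unadjusted p under 0.05, against 17.01% of all genes tested. The count test of edgeR on reads recovered from the values also called 0 of 32, with 6 at an unadjusted p under 0.05. In 4 of the 32 the diets did not overlap (Socs3, Stat3 and Lepr higher, Igf1r lower), where 16.1% of all genes tested did not overlap. The share of the list, 12.5%, was not above that of the table.

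**Figure D2:**
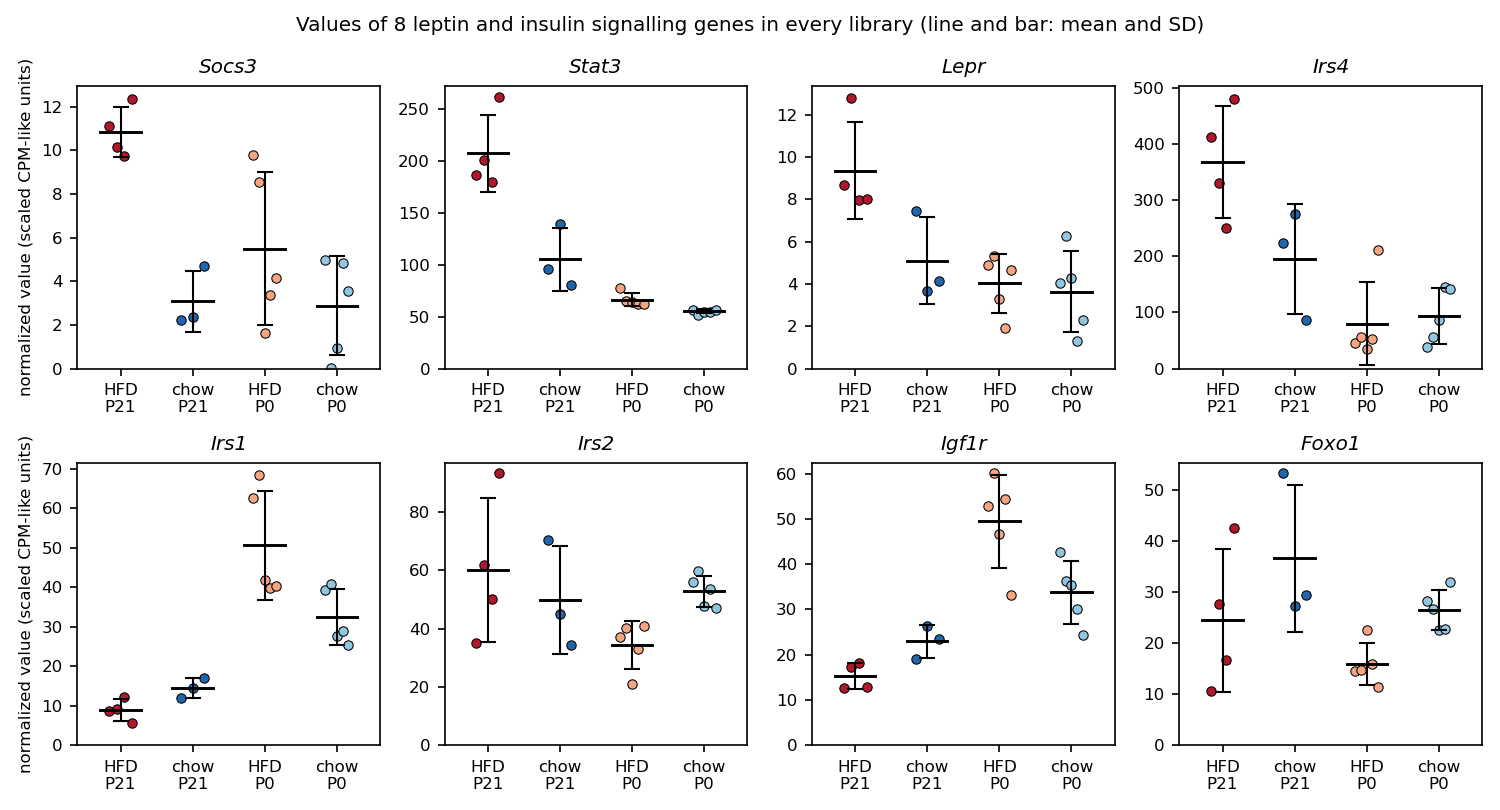
Normalized value (scaled CPM-like units) of 8 genes in every library, by diet and postnatal day, with the group mean and SD. Socs3, Stat3 and Lepr in HFD P21 lie above all chow P21 libraries, and Igf1r lies below them. Irs1 is higher in all P0 than in all P21 libraries of either diet, and Igf1r is so in HFD offspring but overlaps between the ages in chow offspring.

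At day 0 the same comparison asked how the genes differed with the diet of the dam at birth. None of the 31 genes tested passed, where 41 of 14086 genes did (0.291%), and Foxo3 was too low to be tested. Foxo1 and Irs2 had lower means in HFD P0, and Irs1, Igf1r, Tsc1 and Akt2 had higher means. Irs1 and Igf1r were thus on the opposite side to day 21, when their means were lower in HFD offspring. Socs3 had 9.77, 8.56, 1.62, 3.36 and 4.13 in HFD P0, against 4.96, 0.04, 0.94, 4.86 and 3.56 in chow P0. It overlapped between the diets, with a log2 difference of 0.85 ± 0.51 (adjusted p = 0.643), and the value of 0.04 is 1 read.

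Irs2 had 37.0, 40.05, 20.9, 33.0 and 40.7 in HFD P0, against 55.9, 59.6, 47.8, 53.7 and 46.9 in chow P0. Every HFD library was lower, and the log2 difference was -0.64 ± 0.19 (adjusted p = 0.240). Irs1, the other widely used substrate, had 62.7, 68.5, 41.8, 39.9 and 40.3 in HFD P0, against 39.4, 40.8, 27.7, 29.0 and 25.3 in chow P0, with a log2 difference of 0.61 ± 0.21 (adjusted p = 0.343). The groups overlapped only between 39.9 and 40.8. Igf1r had 52.9, 60.1, 46.8, 54.4 and 33.1 in HFD P0, against 42.7, 36.4, 35.5, 30.1 and 24.3 in chow P0, with a log2 difference of 0.53 ± 0.20 (adjusted p = 0.387). Replicate 5 was the lowest library of each diet for Igf1r, and without HFD P0 replicate 5 the log2 difference was 0.67 (adjusted p = 0.0832). Irs4, at 34.6 to 212 in HFD P0 and 37.5 to 146 in chow P0, had a log2 difference of -0.38 ± 0.45, and of -0.82 without that library (adjusted p = 0.223). Insr had 29.9 to 48.1 in HFD P0 and 34.5 to 50.9 in chow P0.

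Foxo1 had 14.6, 14.7, 22.6, 15.97 and 11.4 in HFD P0, against 28.2, 26.7, 22.6, 22.8 and 31.95 in chow P0. The groups met at 22.6 and the log2 difference was -0.72 ± 0.20 (adjusted p = 0.219). Akt2, the AKT of insulin-driven glucose uptake, had 51.0 to 57.7 in HFD P0 and 35.5 to 48.8 in chow P0, with no overlap and a log2 difference of 0.38 ± 0.14 (adjusted p = 0.387). Akt1 had 113, 143, 97.0, 100.2 and 55.4 in HFD P0, against 233, 272, 94.0, 100.2 and 292 in chow P0. The chow libraries of Akt1 split into 3 high and 2 low, the low ones within the HFD range, and the log2 difference was -0.86 ± 0.33 (adjusted p = 0.413). Tsc1, a brake on mTOR, had 41.1 to 58.9 in HFD P0 and 24.5 to 41.4 in chow P0 (log2 difference 0.50 ± 0.18, adjusted p = 0.363). Jak2 had 26.5 to 48.2 in HFD P0 and 37.2 to 61.8 in chow P0 (log2 difference -0.54 ± 0.20, adjusted p = 0.379).

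Stat3 at day 0 had 77.5, 64.8, 64.2, 62.6 and 62.5 in HFD P0, against 56.8, 51.9, 55.0, 54.7 and 56.8 in chow P0. The diets did not overlap, as at day 21, and the log2 difference was 0.26 ± 0.13 (adjusted p = 0.565). Lepr had 1.92 to 5.34 in HFD P0 and 1.31 to 6.25 in chow P0. The log2 differences of Stat5a, Stat5b, Ptpn1, Ptpn2, Sh2b1, Pik3ca, Pik3cb, Pik3r1, Pik3r2, Pdpk1, Gsk3b, Mtor, Rptor, Rictor, Rps6kb1, Tsc2, Prkaa1 and Prkaa2 lay between -0.18 (Rptor) and 0.56 (Mtor), with adjusted p of 0.580 to 0.997. Over the list, 20 differences were above 0 and 11 below, with a median of 0.13 against -0.00 over all genes tested. By limma, 8 of 31 had an unadjusted p under 0.05 (25.8%, against 9.28% of all genes tested), and edgeR on recovered reads called 0 with 9 at an unadjusted p under 0.05. In 3 genes of 31 (9.68%) the diets did not overlap (Stat3 and Akt2 higher, Irs2 lower), where 2.45% of all genes tested did not overlap. At this age the sum of the POMC neuron list was 2430 to 4832 in HFD P0 (median 2607) and 2424 to 4849 in chow P0 (median 3762). Of its 10 markers 8 had a log2 difference below 0 and 0 passed. Pomc itself was at -1.16 ± 0.66 (adjusted p = 0.621). The sum of 8 radial glia and tanycyte markers was 787 to 1510 in HFD P0 and 1058 to 1977 in chow P0. The part of such shifts in the diet differences was not tested.

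**Figure D3:**
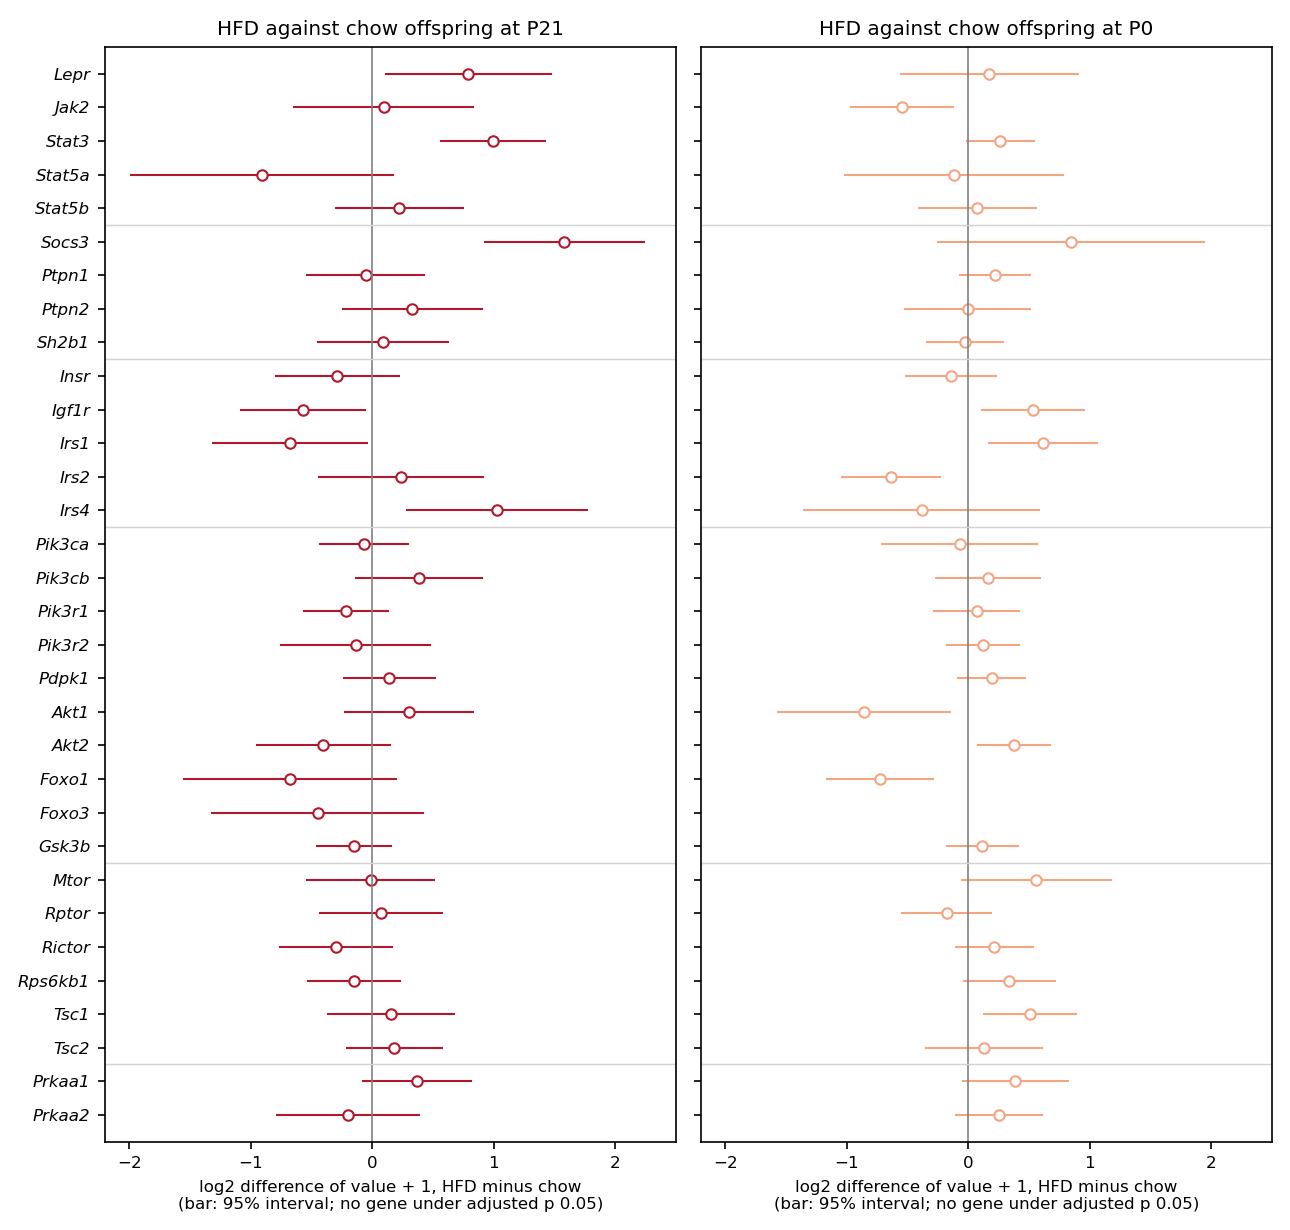
Log2 difference of value + 1 between HFD and chow offspring for each gene, at P21 (left) and P0 (right), with 95% intervals. No point is filled because none passed the test, Foxo3 was not tested at P0, and the intervals of Socs3 and Stat3 at P21 lie furthest above 0.

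Day 21 was compared with day 0 within each diet to see how the genes differed with age. In HFD offspring 19 of 32 genes passed, 6 higher at P21 (18.8%, against 24.7% of all genes tested) and 13 lower (40.6%, against 26.2%). In chow offspring 13 of 31 passed, 2 higher (6.45%, against 18.3% of all genes tested) and 11 lower (35.5%, against 17.7%). The transcription factors Stat3 and Stat5b rose in offspring of either diet, and Ptpn1, Insr, Irs1, Pik3r1, Pik3r2, Gsk3b, Tsc2 and Prkaa2 fell in offspring of either diet. These 10 are 52.6% of the list genes that passed in HFD offspring and 76.9% of those in chow offspring. Of all genes tested, 7250 of 14245 passed in HFD offspring and 5251 of 14549 in chow offspring. The overlap over all genes was not counted, so the shared calls are not read as a trait of the list. The age comparisons share no library. The sum of the POMC neuron list was higher in every P21 library than in any P0 library, and that of the radial glia and tanycyte list was lower (86.4 to 158 in HFD P21, 114 to 182 in chow P21, 787 to 1510 in HFD P0 and 1058 to 1977 in chow P0). Astrocyte sums were higher in every P21 library too (1434 to 2555 in HFD P21, 2825 to 4260 in chow P21, 689 to 840.3 in HFD P0 and 678 to 1012 in chow P0), as were the oligodendrocyte sums given above. Of the astrocyte markers 8 of 10 rose in offspring of either diet, and of the oligodendrocyte markers 9 of 12 rose in HFD offspring and 10 of 12 in chow offspring. Of 6 fibroblast and meningeal markers 5 fell in HFD offspring and 4 in chow offspring, of 10 endothelial and mural markers 6 fell in HFD offspring and 1 in chow offspring, and of 10 microglial markers 2 rose in HFD offspring and 7 in chow offspring. The sum of the AgRP neuron list was 798 to 1419 in HFD P21, above the 75.3 to 214 of HFD P0. In chow offspring it was 138 to 846 in P21 and 79.7 to 165 in P0, so the ages overlapped. Of the 4 AgRP markers tested, 3 rose in HFD offspring and 2 in chow offspring. The part of these shifts in the age differences was not tested.

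In the leptin branch, Stat3 was higher at P21 by a log2 difference of 1.62 ± 0.15 in HFD offspring (adjusted p = 1.87e-06) and of 0.89 ± 0.18 in chow offspring (adjusted p = 0.00185). Stat5b had 69.3, 92.6, 50.5 and 106 in HFD P21, against 21.8, 34.8, 25.6, 18.1 and 44.3 in HFD P0. It had 76.4, 68.5 and 53.5 in chow P21, against 23.6, 30.2, 24.7, 26.6 and 25.6 in chow P0. All P21 libraries lay above all P0 libraries of their diet, and the log2 differences were 1.44 ± 0.27 in HFD offspring (adjusted p = 0.000612) and 1.30 ± 0.18 in chow offspring (adjusted p = 0.00013). Lepr rose in HFD offspring, with P21 libraries at 7.97 to 12.8 and P0 libraries at 1.92 to 5.34 (log2 difference 1.07 ± 0.30, adjusted p = 0.00806). In chow offspring Lepr was at 3.69 to 7.47 in P21 and 1.31 to 6.25 in P0, and its log2 difference of 0.46 ± 0.39 did not pass (adjusted p = 0.395). Jak2 fell in chow offspring, with a log2 difference of -1.04 ± 0.26 (adjusted p = 0.00685), and was at -0.40 ± 0.27 in HFD offspring (adjusted p = 0.224). Stat5a was at -0.48 ± 0.45 in HFD offspring and 0.31 ± 0.46 in chow offspring.

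Among the inhibitors, Ptpn1 had 36.0, 36.4, 42.3 and 37.0 in HFD P21, against 73.8, 90.3, 78.7, 95.7 and 77.6 in HFD P0. It had 30.3, 34.9 and 57.2 in chow P21, against 68.9, 66.8, 67.7, 81.8 and 70.6 in chow P0. Levels at P21 were thus below all those at P0, with log2 differences of -1.11 ± 0.15 in HFD offspring (adjusted p = 4.57e-05) and -0.84 ± 0.20 in chow offspring (adjusted p = 0.00555). Ptpn2, a close relative of Ptpn1, had differences of -0.14 ± 0.24 in HFD offspring and -0.48 ± 0.27 in chow offspring, which did not pass. Socs3 rose in HFD offspring by a log2 difference of 1.05 ± 0.38 (adjusted p = 0.0319), although the P0 libraries reached 9.77 and the P21 libraries began at 9.73. In chow offspring Socs3 was at 0.31 ± 0.54. Leaving out each of 6 libraries in turn ended this call, with adjusted p of 0.0521 to 0.0760, and a log2 difference of 0.77 without HFD P0 replicate 3. It also ended by edgeR (adjusted p = 0.0879) and with all 17 libraries in 1 fit (adjusted p = 0.0676). The adaptor Sh2b1 fell in chow offspring, with a log2 difference of -0.48 ± 0.17 (adjusted p = 0.0435), a call that ended in 5 of 8 fits with a library left out (adjusted p = 0.0663 to 0.158) and with all 17 libraries in 1 fit (adjusted p = 0.0740).

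The 5 insulin and IGF1 receptor and substrate genes all passed in HFD offspring. There 2 were higher (40%, against 24.7% of all genes tested) and 3 lower (60%, against 26.2%). In chow offspring 0 were higher (against 18.3% of all genes tested), 2 were lower (40%, against 17.7%) and 3 did not pass. Irs1 was at 5.56 to 12.2 in HFD P21 and at 39.9 to 68.5 in HFD P0, a log2 difference of -2.39 ± 0.25 (adjusted p = 4.95e-06). In chow offspring it was at 11.9 to 16.96 in P21 and 25.3 to 40.8 in P0, a log2 difference of -1.10 ± 0.23 (adjusted p = 0.00209). Of the exonic bases of Irs1, 30.9% overlap Gm9747 on the opposite strand, and the strand setting of the counting is not given in the sources used here. Reads of Irs1 and Gm9747 may thus not have been told apart, which holds for every comparison and ratio of Irs1. Igf1r was lower at P21, with a log2 difference of -1.63 ± 0.21 in HFD offspring (adjusted p = 3.27e-05), with 12.7 to 18.1 in HFD P21 and 33.1 to 60.1 in HFD P0. Its difference in chow offspring was -0.53 ± 0.22 (adjusted p = 0.0732), with 19.0 to 26.4 in chow P21 and 24.3 to 42.7 in chow P0, and it passed without chow P0 replicate 5 (-0.64, adjusted p = 0.0313). Insr fell with age, with log2 differences of -0.89 ± 0.21 in HFD offspring (adjusted p = 0.00311) and -0.75 ± 0.19 in chow offspring (adjusted p = 0.00787). The chow call of Insr ended without chow P21 replicate 2 (adjusted p = 0.0544).

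Irs4 and Irs2 went the other way in HFD offspring. Irs4 had 413, 331, 249.97 and 480.05 in HFD P21, against 44.8, 56.1, 34.6, 52.8 and 212 in HFD P0, where replicate 5 stood apart. The log2 difference was 2.49 ± 0.40 (adjusted p = 0.00017), and 2.92 without HFD P0 replicate 5. In chow offspring Irs4 had 224, 276 and 86.4 in P21, against 37.5, 55.3, 86.9, 146 and 141 in P0, and its difference of 1.08 ± 0.45 did not pass (adjusted p = 0.0765). It did pass without chow P21 replicate 3, the library with the least Irs4 of its group, at 1.59 (adjusted p = 0.0176), and without chow P0 replicate 4 (1.29, adjusted p = 0.0355) or 5 (1.27, adjusted p = 0.0402). Irs2 rose in HFD offspring by 0.74 ± 0.27 (adjusted p = 0.0335), with 35.1 to 93.4 in HFD P21 and 20.9 to 40.7 in HFD P0. That call ended in 4 of 9 fits with a library left out, at 0.50 without HFD P21 replicate 4 (adjusted p = 0.131), and with columns scaled to equal totals (adjusted p = 0.0897). In chow offspring Irs2 was at -0.14 ± 0.21.

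Of the 10 genes from PI3K to GSK3B, 5 fell in HFD offspring (50.0%, against 26.2% of all genes tested) and 4 of 9 fell in chow offspring (44.4%, against 17.7%). None rose, where 24.7% of all genes did in HFD offspring and 18.3% in chow offspring. The regulatory subunits of PI3K fell in offspring of either diet. Pik3r2 was at 30.2 to 72.8 in HFD P21 and 117 to 174 in HFD P0 (log2 difference -1.32 ± 0.23, adjusted p = 0.000306), and at 46.0 to 76.6 in chow P21 and 116 to 140.2 in chow P0 (log2 difference -1.07 ± 0.17, adjusted p = 0.0004). Pik3r1 had differences of -0.87 ± 0.19 in HFD offspring (adjusted p = 0.00163) and -0.59 ± 0.13 in chow offspring (adjusted p = 0.00437). The catalytic subunit Pik3ca passed in HFD offspring at -0.65 ± 0.25 (adjusted p = 0.0438), a call kept in 1 of 9 fits with a library left out, that without HFD P0 replicate 5 (-0.90, adjusted p = 0.000135), and reaching an adjusted p of 0.102 in the others. It also ended with median-of-ratios scaling (adjusted p = 0.0531) and all 17 libraries in 1 fit (adjusted p = 0.0508). Pik3ca was at -0.66 ± 0.28 in chow offspring (adjusted p = 0.0859), and passed without chow P0 replicate 3 (-0.81, adjusted p = 0.0381) or 4 (-0.77, adjusted p = 0.0485). Pik3cb, the other catalytic subunit, was at -0.01 ± 0.24 in HFD offspring and -0.23 ± 0.21 in chow offspring.

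The AKT genes passed in different diets. Akt2 was at 27.3 to 37.9 in HFD P21 and 51.0 to 57.7 in HFD P0 (log2 difference -0.81 ± 0.16, adjusted p = 0.000991), and at 27.3 to 59.7 in chow P21 and 35.5 to 48.8 in chow P0 (-0.03 ± 0.23). Akt1 fell in chow offspring, with 52.8 to 89.3 in chow P21 and 94.0 to 292 in chow P0 (-1.42 ± 0.37, adjusted p = 0.00891), and was at -0.25 ± 0.25 in HFD offspring (adjusted p = 0.427). Gsk3b, a kinase that AKT inhibits, fell in HFD offspring with a log2 difference of -0.77 ± 0.15 (adjusted p = 0.000651) and in chow offspring with one of -0.50 ± 0.15 (adjusted p = 0.0167). The chow call of Gsk3b ended without chow P21 replicate 1 (adjusted p = 0.0653) or replicate 2 (adjusted p = 0.0552). Foxo1 was at 0.45 ± 0.34 in HFD offspring and 0.41 ± 0.24 in chow offspring. Foxo3 was at -0.56 ± 0.41 in HFD offspring and too low to be tested in chow offspring. Pdpk1, which activates AKT, was at 0.15 ± 0.15 in HFD offspring and 0.20 ± 0.16 in chow offspring.

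Of the 6 mTOR genes, 3 fell in HFD offspring (50.0%, against 26.2% of all genes tested) and 1 in chow offspring (16.7%, near the 17.7% of all genes tested). Mtor had 35.7, 27.7, 21.0 and 42.0 in HFD P21, against 91.3, 92.9, 57.1, 77.3 and 43.5 in HFD P0. The log2 difference was -1.16 ± 0.26 (adjusted p = 0.00186). In chow offspring Mtor was at 28.7 to 34.8 in P21 and 32.6 to 86.5 in P0, and its difference of -0.59 ± 0.30 did not pass (adjusted p = 0.144). Rps6kb1, the S6 kinase below mTOR, fell in HFD offspring with a log2 difference of -0.74 ± 0.19 (adjusted p = 0.00539) and was at -0.26 ± 0.16 in chow offspring. Tsc2 fell in HFD offspring with a log2 difference of -0.68 ± 0.22 (adjusted p = 0.0173) and in chow offspring with one of -0.73 ± 0.21 (adjusted p = 0.0164), and the chow call of Tsc2 ended without chow P21 replicate 1 (adjusted p = 0.0911) or replicate 2 (adjusted p = 0.0511). Rptor, a subunit of mTOR complex 1, was at 0.52 ± 0.23 in HFD offspring (adjusted p = 0.0680) and 0.27 ± 0.17 in chow offspring. In HFD offspring Rptor passed without HFD P21 replicate 1 (0.65, adjusted p = 0.0423), HFD P21 replicate 3 (0.65, adjusted p = 0.0389) or HFD P0 replicate 5 (0.60, adjusted p = 0.0296), and with all 17 libraries in 1 fit (adjusted p = 0.0284). Rictor was at -0.23 ± 0.20 in HFD offspring and 0.28 ± 0.16 in chow offspring, and Tsc1 at -0.31 ± 0.19 in HFD offspring and 0.04 ± 0.23 in chow offspring.

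Of the AMPK subunits, Prkaa2 fell with age in offspring of either diet and Prkaa1 did not pass. Prkaa2 had 15.5, 26.6, 25.3 and 18.7 in HFD P21, against 65.1, 51.5, 52.9, 43.4 and 60.0 in HFD P0. It had 17.8, 33.5 and 24.0 in chow P21, against 47.0, 35.8, 40.6, 54.7 and 51.0 in chow P0. The P21 libraries were below all P0 libraries of their diet, with log2 differences of -1.32 ± 0.20 in HFD offspring (adjusted p = 0.000127) and -0.87 ± 0.22 in chow offspring (adjusted p = 0.00831). The chow call ended without chow P21 replicate 1 (adjusted p = 0.0507). Prkaa1 had differences of 0.43 ± 0.19 in HFD offspring (adjusted p = 0.0693) and 0.44 ± 0.24 in chow offspring (adjusted p = 0.171), which did not pass. The HFD difference of Prkaa1 passed without HFD P21 replicate 3 (0.52, adjusted p = 0.0445) or HFD P0 replicate 5 (0.49, adjusted p = 0.0302).

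Over the whole list the median log2 difference with age was -0.38 in HFD offspring, against -0.05 over all genes tested, and -0.26 in chow offspring, against -0.01. The column totals differed with age, and scaling all columns to the same total moved the median of all genes in HFD offspring to -0.21 and that of the list to -0.55. Under that scaling 4 genes of the list rose and 15 fell in HFD offspring, and of all genes 2851 rose and 4583 fell, where 3521 rose and 3729 fell with the deposited scaling. Socs3 and Irs2 no longer passed there (adjusted p = 0.0615 for Socs3 and 0.0897 for Irs2), Sh2b1 (-0.54, adjusted p = 0.0453) and Tsc1 (-0.48, adjusted p = 0.0457) did, and no gene of the list that passed changed direction.

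**Figure D4:**
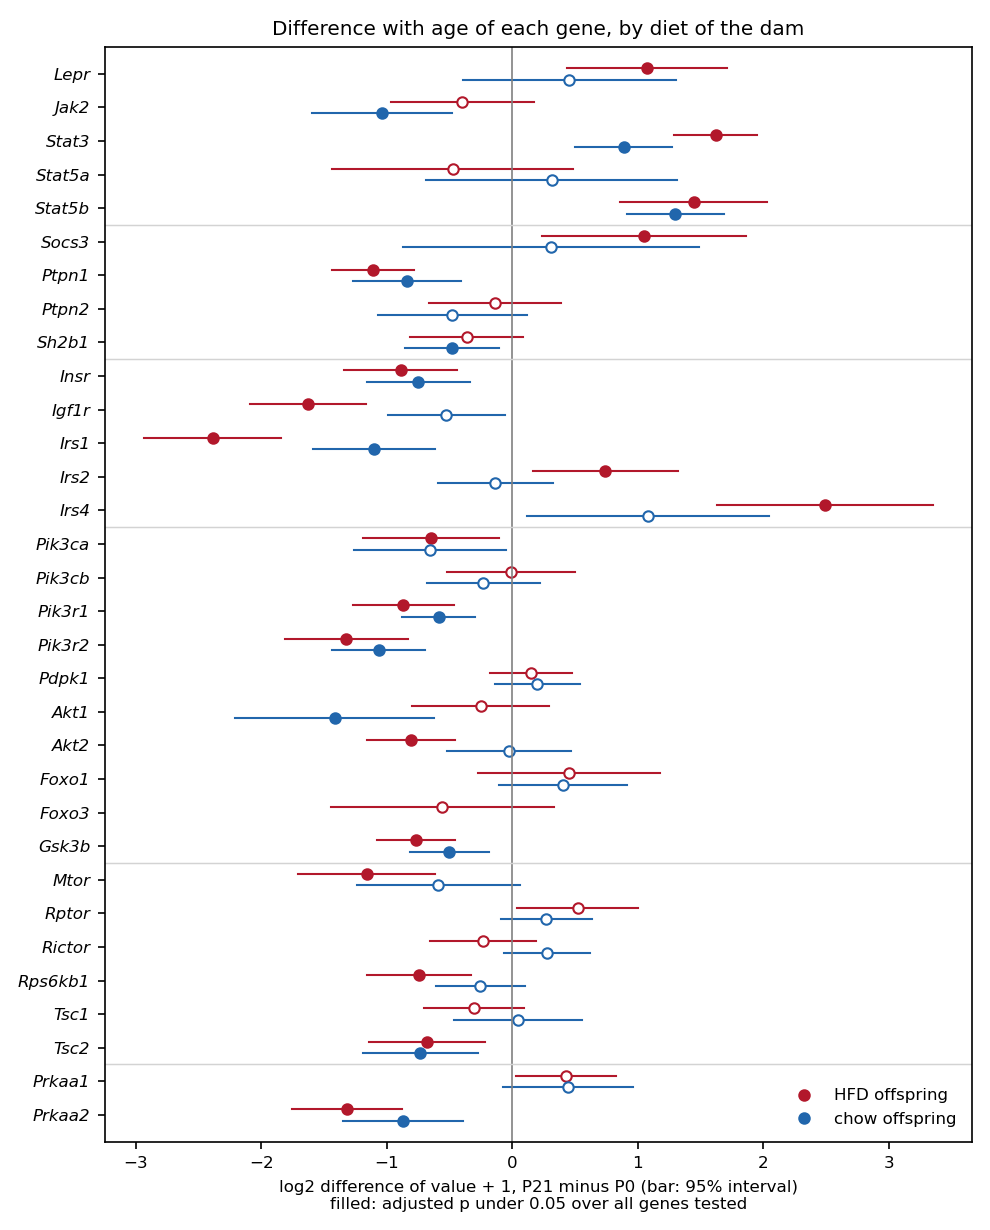
Log2 difference of value + 1 between P21 and P0 for each gene, in HFD offspring (red, upper) and chow offspring (blue, lower), with 95% intervals and filled points for an adjusted p under 0.05. Stat3 and Stat5b lie right of 0 and Irs1, Ptpn1, Pik3r2 and Prkaa2 lie left of 0 in offspring of either diet, while Irs4 in HFD offspring is the point furthest right.

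Passing in 1 diet and not in the other does not show that the age difference depended on the diet, so the diet by age interaction was tested over all 17 libraries. None of the 32 genes passed, and 4 of 15037 genes did (0.0266%). By limma, 8 of 32 had an unadjusted p under 0.05 (25%, against 15.2% of all genes tested), and edgeR on recovered reads called 0 with 8 at an unadjusted p under 0.05. The smallest p was that of Irs1, whose age difference was lower in HFD than in chow offspring, with an interaction of -1.29 ± 0.35 (adjusted p = 0.116). Igf1r followed at -1.10 ± 0.30 (adjusted p = 0.119) and Stat3 at 0.73 ± 0.23 (adjusted p = 0.152). Without HFD P0 replicate 5, Igf1r (-1.23, adjusted p = 0.0262) and Irs1 (-1.36, adjusted p = 0.0391) did pass, and the count over all genes rose to 557. For Irs1 and Igf1r, the means in HFD offspring were above those in chow offspring at day 0 and below them at day 21. The other 5 with an unadjusted p under 0.05 were Akt2, Akt1, Irs2, Foxo3 and Irs4, with adjusted p of 0.190 to 0.328. The interactions of Lepr, Socs3, Jak2, Stat5a, Stat5b, Ptpn1, Ptpn2, Sh2b1, Insr, Pik3ca, Pik3cb, Pik3r1, Pik3r2, Pdpk1, Foxo1, Mtor, Rptor, Rictor, Rps6kb1, Tsc1, Tsc2, Gsk3b, Prkaa1 and Prkaa2 lay between -0.79 (Stat5a) and 0.74 (Socs3), with adjusted p of 0.349 to 0.998.

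Ratios within a library do not depend on how the libraries were scaled, and 11 pairs of related genes were compared in this way per kb of exon, as a description with no test. Irs2 over Irs1 was 0.854, 0.846, 0.725, 1.20 and 1.46 in HFD P0, against 2.05, 2.11, 2.49, 2.68 and 2.68 in chow P0. The HFD libraries thus held about as much of the 2 substrates per length, and every chow library held more Irs2. The limit given above for reads of Irs1 and Gm9747 applies to this ratio. At day 21 Irs2 over Irs1 was 5.92, 9.69, 5.96 and 24.3 in HFD P21, against 8.56, 4.52 and 2.92 in chow P21, above the day 0 libraries of either diet. Igf1r over Insr was 0.901, 1.04, 1.00, 1.09 and 0.909 in HFD P0, against 0.686, 0.627, 0.659, 0.513 and 0.577 in chow P0, again with no overlap. At day 21 it was 0.523 to 0.620 in HFD P21 and 0.552 to 1.00 in chow P21. In the other 9 pairs the diets overlapped at day 0.

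Prkaa2 over Prkaa1 was 0.156 to 0.393 in HFD P21 and 0.245 to 0.558 in chow P21, against 0.822 to 1.10 in HFD P0 and 0.798 to 1.65 in chow P0. The AMPK subunits were thus near balance per length at day 0, and Prkaa1 was the higher of them at day 21. Ptpn2 over Ptpn1 was 0.676 to 1.13 in HFD P21, against 0.582 to 0.654 in chow P21. At day 0 it was 0.279 to 0.671 in HFD P0 and 0.321 to 0.674 in chow P0. It was the 1 pair of 11 in which the diets did not overlap at day 21, when 16.1% of single genes tested did not overlap. How often other pairs of genes do not overlap was not counted at either age, so a lack of overlap is not read as a trait of these pairs. Stat5a over Stat5b stayed at or below 0.160 in every library.

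**Figure D5:**
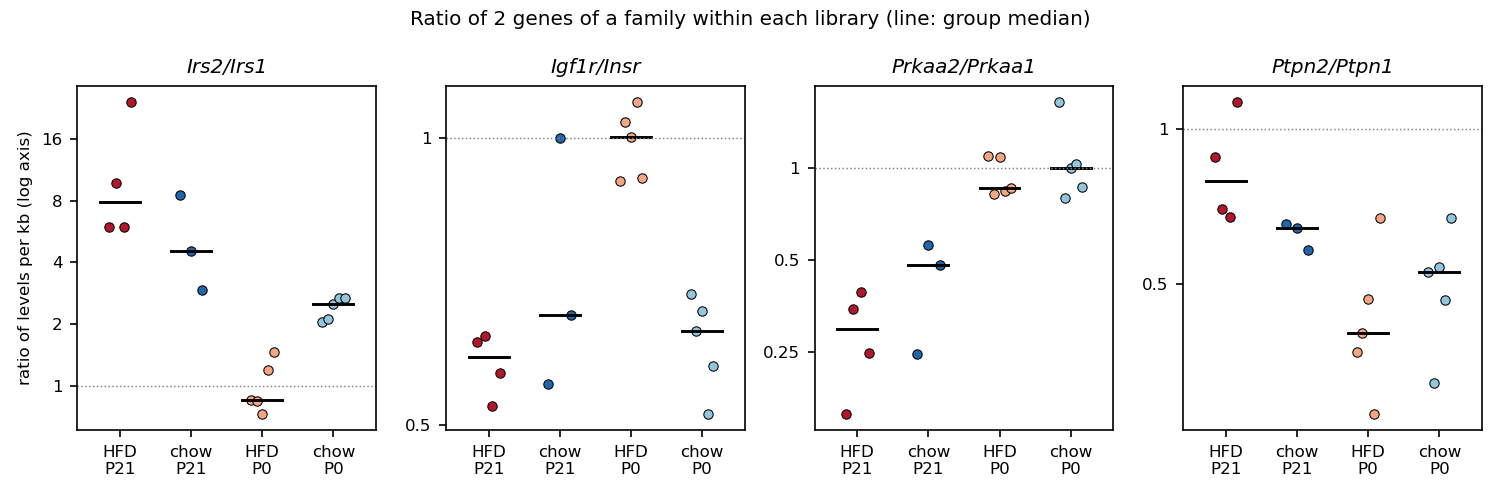
Ratio of the levels per kb of 4 pairs of related genes in each library (log axis, line at the group median, dotted line at 1). Irs2/Irs1 and Igf1r/Insr separate HFD P0 from chow P0, and Prkaa2/Prkaa1 is lower at P21 than at P0 for either diet.

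The wider pathway was followed in 117 partner genes of 5 lists. Between the diets none passed at either age, of 116 tested at day 21 and 116 at day 0, with 22 at day 21 (19.0%, near the 17.01% of all genes tested) and 9 at day 0 (7.76%, below the 9.28% of all genes tested) at an unadjusted p under 0.05 by limma. By edgeR on recovered reads none passed either, with 21 at day 21 and 10 at day 0 at an unadjusted p under 0.05. The smallest p at day 21 was that of Cish, a STAT5-induced suppressor of cytokine signalling, which had 14.8 to 18.6 in HFD P21 and 5.01 to 9.42 in chow P21 (log2 difference 1.19, adjusted p = 0.0813). Next were Igfbp6, an IGF-binding protein, with 1.23 to 1.93 in HFD P21 and 4.52 to 5.61 in chow P21 (-1.22, adjusted p = 0.102), and Eif4e, the cap-binding factor below mTOR, with 331 to 451 in HFD P21 and 251 to 285 in chow P21 (0.53, adjusted p = 0.109). At day 0 the smallest was Ppp2ca, a catalytic subunit of the phosphatase PP2A, with 99.3 to 419 in HFD P0 and 514 to 825 in chow P0 (-1.31, adjusted p = 0.0864). Inpp5e (0.55, adjusted p = 0.321) and Prkag2 (-0.46, adjusted p = 0.326) followed.

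With age, 23 partners rose (20%, against 24.7% of all genes tested) and 37 fell (32.2%, against 26.2%) of 115 tested in HFD offspring. In chow offspring 21 rose (18.1%, against 18.3%) and 23 fell (19.8%, against 17.7%) of 116, close to all genes tested. The shares in each list below are read against the same percentages. The list of insulin and IGF ligands, binding proteins and receptor regulators had 3 higher (14.3%) and 12 lower (57.1%) of 21 in HFD offspring, and 2 higher (9.52%) and 8 lower (38.1%) in chow offspring. Among them Igfbp2, Igfbp4 and Igfbp5, which bind IGFs outside the cell, fell in offspring of either diet. Igfbp4 was at 5.16 to 8.98 in HFD P21 and 48.8 to 104 in HFD P0 (log2 difference -2.93), and at 5.61 to 14.6 in chow P21 and 51.7 to 85.5 in chow P0 (-2.60). Socs2, a suppressor of growth hormone signalling, Dok4, a docking protein of the insulin receptor, the pseudokinase gene Trib2 and the adaptor Sh2b2 also fell in offspring of either diet. Socs2 was at 18.6 to 22.5 in HFD P21 and 63.6 to 101 in HFD P0, and at 11.4 to 16.2 in chow P21 and 55.3 to 88.8 in chow P0.

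The leptin receptor and JAK-STAT partners passed in both directions, with 5 higher (19.2%) and 5 lower (19.2%) of 26 in HFD offspring and 6 higher (23.1%) and 4 lower (15.4%) in chow offspring. The mTOR partners had 10 higher (33.3%) and 7 lower (23.3%) of 30 in HFD offspring and 8 higher (26.7%) and 2 lower (6.67%) in chow offspring. Deptor, an inhibitor of mTOR, was at 36.7 to 51.7 in HFD P21 and 2.51 to 15.7 in HFD P0 (log2 difference 2.62), and at 39.8 to 46.1 in chow P21 and 3.16 to 9.81 in chow P0 (2.48). The AMPK partners had 3 higher (21.4%) and 6 lower (42.9%) of 14 in HFD offspring and 3 higher (21.4%) and 5 lower (35.7%) in chow offspring. The regulatory subunit Prkab1 fell in offspring of either diet, at 7.79 to 11.0 in HFD P21 and 36.7 to 55.6 in HFD P0 (log2 difference -2.23), and at 14.7 to 19.8 in chow P21 and 31.1 to 44.1 in chow P0 (-1.09). So did Prkab2 (-1.98 in HFD offspring and -1.22 in chow offspring), while Cab39l, a partner of the AMPK-activating kinase, rose (1.78 in HFD offspring and 1.07 in chow offspring), as did the regulatory subunit Prkag1 (1.52 in HFD offspring and 1.03 in chow offspring). Prkag2 fell in chow offspring (-0.89) and was at -0.14 in HFD offspring (adjusted p = 0.543). The PI3K and AKT partners had 2 higher (8.33%) and 7 lower (29.2%) of 24 in HFD offspring and 2 higher (8%) and 4 lower (16%) of 25 in chow offspring. In the interaction none of 117 partners passed, with 20 at an unadjusted p under 0.05 by limma (17.1%, against 15.2% of all genes tested), and by edgeR also none, with 21. The smallest p was that of the AMPK subunit Prkab1 (-1.13, adjusted p = 0.0880), followed by the adaptor Gab1 (-1.06, adjusted p = 0.120) and Prkag2 (0.76, adjusted p = 0.143).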

How the data were processed

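Ribosome-bound RNA was pulled down with an HA antibody, and Nextera XT libraries were read as 50-base single reads, per the labels' protocols. The submitters' processing notes name build mm10 and, in no stated role, edgeR, HTSeq 0.6.1, Picard 1.80, TopHat2 2.0.13 and FastQC. The authors' deposited table holds normalized signal per gene and library, in scaled CPM-like units with 2 decimals. From the values, each column is whole reads divided by an effective library size: 99.9% to 100% of the non-zero values up to 1000 reads lay at a whole read within the rounding, against 21.8% to 36.3% at random. Only in 6 of the 17 libraries did the steps of 1 read also meet a stricter rule. The edgeR test used the recovered reads of all libraries in a comparison, those that did not meet this rule among them.

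Values were analysed as log2(value + 1) with limma 3.58.1 in R 4.3.3 (intensity trend, non-robust prior), two-sided, with Benjamini-Hochberg adjustment at 0.05 over all genes tested, which needed values above 1 in a number of libraries equal to the size of the smaller group. Each comparison used its own libraries, and the interaction used all 17. Exon lengths came from GENCODE M21 (GRCm38, the assembly of mm10), which matched 14404 of the 15355 symbols, all 32 of the list among them. Of these, 10 share exonic bases with another gene and 1 more than 10%. The test was checked on simulated data, with changes larger than most differences given here and the same spread for all genes. That check therefore does not show how well smaller or more variable differences are found. Alternatives were a pseudocount of 0.1, no filter, columns scaled to equal totals or by median-of-ratios factors, all libraries in 1 fit, a replicate block, the quasi-likelihood test of edgeR 4.0.16 on recovered reads, and each library left out. All 32 genes were named in every comparison, some of them by their range. Of the partners, up to 10 past the threshold with the smallest p were named, or 3 where none passed. The genes and lists were chosen with earlier results of these data known.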

Additional observations from a re-analysis of the deposited data

Results flagged for a closer look

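Of 96 sets of 4 or 5 libraries of a group, examined for a library far from the rest of its group (Dixon's test at 95%, by which chance marks about 1 in 20), 6 held such a library. In HFD P0 replicate 5, Irs4 was at 211.71, against 34.58 to 56.11 in the other HFD P0 libraries, and Pik3ca was at 27.68, against 63.81 to 77.21. That library also had the most Pomc, Agrp and Npy of its group. Its Agrp was at 25.57, against 4.11 to 8.31 in the other HFD P0 libraries, and its Npy at 178.7, against 62.93 to 81.07. In HFD P0 replicate 1, Stat3 was at 77.53, against 62.55 to 64.84. At day 21, Lepr was at 12.79 in HFD P21 replicate 2, against 7.97 to 8.66, and Ptpn1 was at 42.26 in HFD P21 replicate 3, against 35.99 to 36.99. In chow P0 replicate 4, Ptpn1 was at 81.75, against 66.75 to 70.63. The chow P21 group, with 3 libraries, was not examined in this way.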

How the results depend on the processing

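The number of list genes that passed stayed at 0 at day 0 in every setting, and at day 21 in all but the fit of all 17 libraries, where it was 1 (Stat3). It was 12 to 15 in other settings and 9 to 14 with a library left out for age in chow offspring, 18 to 22 and 16 to 21 for age in HFD offspring, and 0 to 2 for the interaction with a library left out. Over all genes, the count between the diets at day 0 (41) was 10 with all libraries in 1 fit and 18 to 135 with a library left out. At day 21 (25) it was 16 with no filter, 15 by edgeR and 3 to 51 with a library left out. The interaction (4) gave 9 with equal totals, 14 by edgeR and 2 to 557 with a library left out.

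The main fits did not pair libraries by replicate number. The correlation of same-numbered deviations from the group means was 0.19, 0.28, -0.04, -0.18 and 0.50 for replicates 1 to 5 at day 0. At day 21 it ran from -0.04 to 0.11. Whether same-numbered libraries were handled together was not tested. In the fit with the replicate block, a library whose number is absent from the other group gets a block of its own and no weight in the difference: HFD P21 replicate 4 at day 21, HFD P0 replicate 5 for age in HFD offspring, and chow P0 replicates 4 and 5 for age in chow offspring. The counts below therefore differ from those without the block by the block and by these libraries. With the replicate block, the counts over all genes were 104 at day 0, 3 at day 21 and 133 for the interaction, and those of the list were 0, 0 and 0, with 15 for age in chow offspring and 22 in HFD offspring.

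With 3 to 5 libraries a group, differences within the spread were not detectable, and Foxo3, Stat5a and Socs3 rest on few reads in some libraries. In offspring of either diet, no list gene that passed the age test changed direction under any setting run.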
